A study of Macaca mulatta with 49 samples.

Results

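SOCS1, SOCS2, SOCS3, CISH, PIM1 and OSM, 6 genes of the cytokine feedback circuit, were read from 8 probes in central memory T cells (TCM) of rhesus macaques. The probes were those whose annotated symbol was one of these 6 genes, taken from 47230 probes on the array, of which 30113 carried 1 gene symbol. SOCS2 and SOCS3 had 2 probes each and the other 4 genes 1 each, and every probe is described. The study gave 6 animals an antibody against interleukin 15 (IL-15) and 6 animals an IgG1 control antibody. CD8 TCM and CD4 TCM were sorted from blood (PBMC) of every animal after and before treatment, which makes 8 groups of 6 samples. The labels used here name no dose, time since treatment, age, strain or genetic change. Human Illumina BeadChips were used, so a macaque transcript that differs from a human probe can give a low signal although the gene is expressed.

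Cytokines that signal through JAK kinases and STAT transcription factors switch on their own inhibitors. SOCS1 and SOCS3 bind JAKs or cytokine receptors and block the kinase, while CISH and SOCS2 are classical STAT5 targets that dampen signalling by IL-2 family and growth hormone type receptors. IL-15 signals through IL-2 receptor beta and the common gamma chain to JAK1, JAK3 and STAT5, and sustains memory CD8 T cells and natural killer (NK) cells. PIM1 is a serine/threonine kinase induced by STATs that supports survival, and OSM (oncostatin M) is an IL-6 family cytokine made by activated T cells and myeloid cells.

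Detection differed between the probes. SOCS1 (ILMN_1774733), PIM1 (ILMN_1815023) and OSM (ILMN_1780546) had a detection p-value under 0.05 in all 24 CD8 and all 24 CD4 samples. CISH (ILMN_1738207) was detected in 20 of 24 CD8 and 24 of 24 CD4 samples. The brighter SOCS3 probe (ILMN_1781001) was detected in 23 CD8 and 24 CD4 samples, and the dimmer one (ILMN_2156250) in 13 and 15. The brighter SOCS2 probe (ILMN_2131861) was detected in 6 CD8 and 21 CD4 samples, and the dimmer one (ILMN_1798926) in 4 and 19. A probe was tested in a cell type where at least 6 samples detected it, so 7 of the 8 were tested within CD8 TCM and all 8 within CD4 TCM. A signal near background limits how large a difference can appear.

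The 48 samples were run on 49 arrays, and 1 CD8 sample had 2 arrays, which correlated at r = 0.988 across probes against 0.975 to 0.985 between other animals of its group. The arrays detected 24.2% to 29.0% of probes in CD8 and 25.4% to 31.5% in CD4. The sorted populations carried their lineage markers only in part. CD8A, the CD8 alpha chain, averaged 12.93 (log2 intensity) in CD8 samples and 5.61 in CD4 samples. The CD4 probe was detected in 0 of 24 CD8 and 1 of 24 CD4 samples, so it does not check the CD4 label on this human array. CD3D, CD3G, CD2, CCR7 and IL7R were detected in every sample. Of the same T cell and central memory lists, CD3E was detected in 3 of 24 CD8 and 4 of 24 CD4 samples. CD27 was detected in 1 and 0, and CD28 in 15 and 23.

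After anti-IL-15, 1 member probe passed the test in each cell type. It was the brighter SOCS3 probe in CD8 TCM, 1 of 7 tested, where 0.0677% of the 10345 probes passed, and SOCS1 in CD4 TCM, 1 of 8 tested, where 0.0275% of the 10896 probes passed. All calls are limma's moderated tests, adjusted by Benjamini-Hochberg over all probes tested, with a threshold of 0.05. These post-treatment fits took the animal as a block. After the IgG1 control no member probe passed in CD8 or CD4 TCM, where 0% of all probes passed as well. At an unadjusted p under 0.05 the IgG1 fits held 1 of 7 member probes and 722 of all probes in CD8, and 3 of 8 and 372 of all probes in CD4. The plot of changes by antibody gives all 8 probes.

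**Figure D1:**
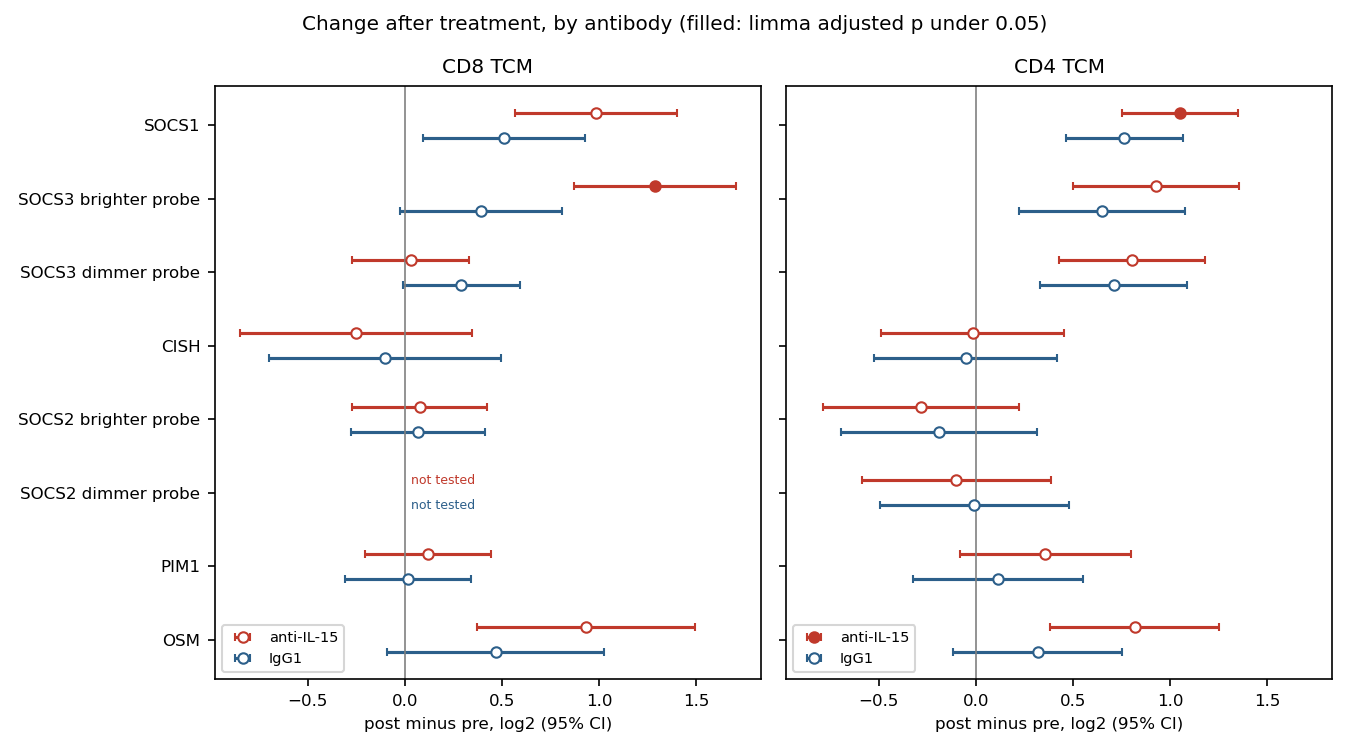
Change after treatment (post minus pre, log2) of each probe in CD8 TCM (left) and CD4 TCM (right), for anti-IL-15 (red) and IgG1 (blue). Points are limma estimates with 95% confidence intervals from 6 animals per antibody, and filled points passed an adjusted p of 0.05. SOCS1, the brighter SOCS3 probe and OSM lie above 0 under both antibodies in both cell types, and CISH and SOCS2 intervals all span 0.

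SOCS1, the inhibitor that binds JAK catalytic domains, was higher in all 6 animals after anti-IL-15 in both cell types. In CD8 TCM the lowest, median and highest log2 intensities were 9.09, 9.30 and 9.50 after anti-IL-15, against 7.69, 8.36 and 8.92 before it. The ranges did not overlap, and the spread narrowed to an SD of 0.14 after treatment against 0.46 before it. The share of all probes without such overlap was not counted. The change was 0.98 ± 0.20 (SE, n = 6), 1.98-fold, and it missed the threshold (limma adjusted p = 0.0643). With the deposited values the SOCS1 change was 0.82 and passed (limma adjusted p = 0.0316), and without anti-IL-15 animal 6 it was 1.15 and passed (limma adjusted p = 0.0354). It passed in only 2 of 12 fits that left out 1 animal. Of 16 alternatives it passed in 6, counting a looser threshold of 0.1, and the limma adjusted p reached 0.752 in another. In CD8 TCM of IgG1 animals the values were 7.04, 8.89 and 9.28 after treatment and 7.38, 7.96 and 8.98 before it, with 5 of 6 animals higher and a change of 0.51 ± 0.20 (limma adjusted p = 0.689).

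In CD4 TCM, SOCS1 rose by 1.05 ± 0.14 (SE, n = 6), 2.07-fold, after anti-IL-15 and ranked 1 by p among the probes tested (limma adjusted p = 0.00682). Its intensities were 9.34, 9.78 and 10.18 after anti-IL-15, against 8.17, 8.69 and 9.37 before it. All 6 animals were higher, and 5 of the 6 post-treatment samples lay above the highest pre-treatment sample. SOCS1 also ranked 1 in CD4 TCM of IgG1 animals, with values of 7.94, 8.82 and 9.83 after treatment and 7.28, 8.07 and 9.02 before it. There it was higher in 6 of 6 animals, by 0.76 ± 0.14, without passing the threshold (limma adjusted p = 0.425). The SOCS1 call in CD4 TCM ended when anti-IL-15 animal 4 was left out (0.98, limma adjusted p = 0.0754) and when the sorted cell count was a covariate (0.84, limma adjusted p = 0.992). It ended as well without the animal as a block (limma adjusted p = 0.912), with the animal as a random effect (0.626) and with the animals of 1 antibody alone (0.114). The cells sorted from CD4 TCM after treatment numbered 0.527 times those before it under anti-IL-15 (geometric mean, fewer in 6 of 6 animals) and 0.802 times under IgG1 (fewer in 4 of 6). In such bulk samples a different share of expressing cells and a different amount of RNA per cell cannot be told apart.

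**Figure D2:**
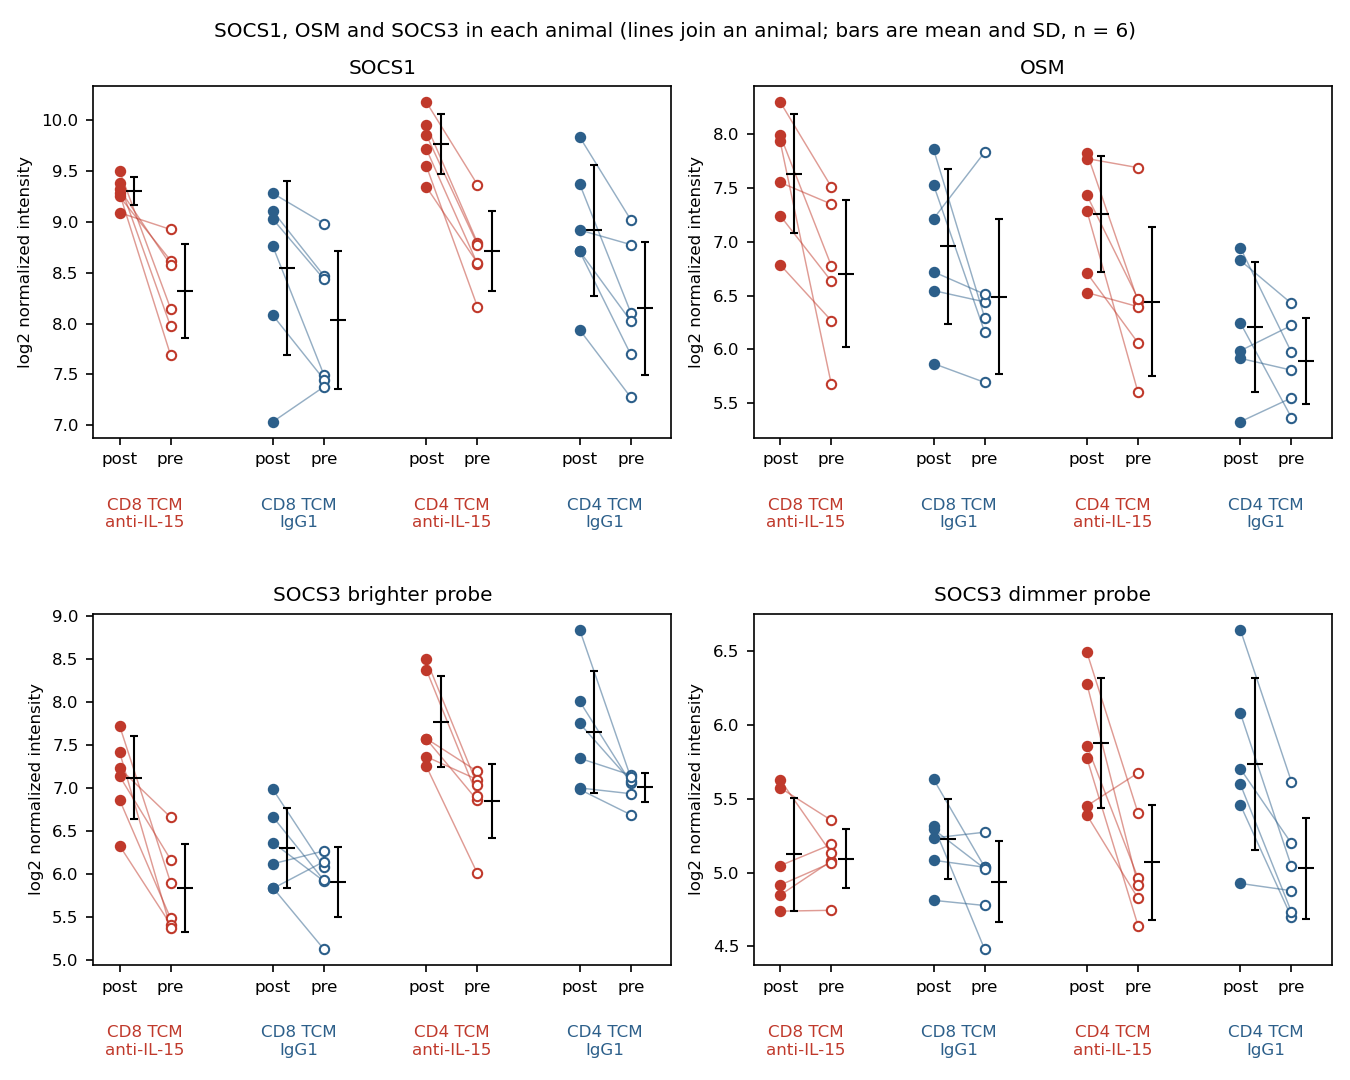
Log2 normalized intensity of SOCS1, OSM and both SOCS3 probes in every sample, by cell type and antibody, with post-treatment samples (filled) left of pre-treatment samples (open) and lines joining an animal. Bars are mean and SD of 6 animals. Post-treatment and pre-treatment points do not overlap for SOCS1 in CD8 TCM and for the brighter SOCS3 probe in CD4 TCM of anti-IL-15 animals. How many of all probes share this was not counted.

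SOCS3, which inhibits signalling by gp130 and related receptors, rose in CD8 TCM after anti-IL-15 by its brighter probe, by 1.29 ± 0.20 (SE, n = 6), 2.44-fold, the third lowest p of the probes tested (limma adjusted p = 0.0165). The log2 intensities were 6.33, 7.18 and 7.73 after anti-IL-15, against 5.37, 5.69 and 6.66 before it. All 6 animals were higher, and 5 of the 6 post-treatment samples lay above the highest pre-treatment sample. The raw intensities behind these were modest, 125 to 257 after anti-IL-15 and 111 to 166 before it, on arrays whose median probe read 88 to 103. In IgG1 animals the probe read 5.83, 6.24 and 6.98 after treatment and 5.12, 6.00 and 6.27 before it, a change of 0.39 ± 0.20 with 4 of 6 animals higher (limma adjusted p = 0.689).

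The dimmer SOCS3 probe did not follow the brighter one in CD8 TCM. It read 4.74, 4.98 and 5.63 after anti-IL-15 and 4.75, 5.11 and 5.35 before it, was detected in 2 of 6 samples after treatment and 4 of 6 before it, with a change of 0.03 ± 0.14 (limma adjusted p = 0.978). Its interval, -0.27 to 0.33, does not reach the 0.87 at the low end of the interval of the brighter probe. In CD4 TCM both probes gave similar sizes. The brighter one was 0.93 ± 0.20 higher after anti-IL-15 (limma adjusted p = 0.296) and the dimmer one 0.80 ± 0.18 (limma adjusted p = 0.298), neither past the threshold.

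In CD4 TCM the brighter SOCS3 probe read 7.25, 7.57 and 8.50 after anti-IL-15 and 6.00, 6.97 and 7.19 before it. Those ranges did not overlap and 6 of 6 animals were higher, and the share of all probes without overlap was not counted here either. The dimmer probe read 5.39, 5.82 and 6.49 after anti-IL-15 and 4.64, 4.94 and 5.68 before it, with 5 of 6 animals higher. After IgG1 the brighter probe was higher in 6 of 6 animals (0.65 ± 0.20) and the dimmer one in 6 of 6 (0.71 ± 0.18), both with a limma adjusted p of 1.00. Across the 24 levels of each cell type both SOCS3 probes correlated at r = 0.78 in CD4 and r = 0.35 in CD8, a description over samples that share animals. Which probe matches the macaque transcript was not tested.

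The SOCS3 call in CD8 TCM passed in 9 of the 12 fits that left out 1 animal and missed the threshold without anti-IL-15 animal 1 (limma adjusted p = 0.0557), animal 2 (0.0648) or animal 5 (0.0646), with changes of 1.14 to 1.43 over all 12 fits. With the deposited values, which carry no background correction, the SOCS3 change was 0.67 and still passed (limma adjusted p = 0.0211). The call ended with no filter on dim probes (limma adjusted p = 0.131), without the block (0.155), with the animals of 1 antibody alone (0.0788) and without animals 5 and 6 of each antibody (0.0680).

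CISH, the STAT5-induced inhibitor of IL-2 family signalling, did not pass in any post-treatment comparison. In CD8 TCM it read 5.07, 5.34 and 5.90 after anti-IL-15 and 5.24, 5.61 and 6.32 before it, and was detected in 3 of 6 samples after treatment against 6 of 6 before it. It was lower in 5 of 6 animals, but the mean change of -0.25 ± 0.28 (limma adjusted p = 0.843) included animal 5 at -1.25, with the others between -0.26 and 0.27. After IgG1 the CISH changes in CD8 TCM ran from -1.58 to 1.28 with a mean of -0.10, a wider spread than under anti-IL-15. IgG1 animals 5 and 6 fell by -1.58 and -1.14, with the others between -0.06 and 1.28. The mean thus depended on these animals, and it ran from -0.34 to 0.53 over the alternative settings without passing. In CD4 TCM the CISH changes averaged -0.02 ± 0.22 after anti-IL-15 and -0.05 ± 0.22 after IgG1, with 3 of 6 animals higher under each antibody. IgG1 animals 5 and 6 were again the lowest there (-0.67 and -0.92), with the others between -0.01 and 0.63.

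SOCS2, a STAT5-induced inhibitor of growth hormone type signalling, was near background in CD8 TCM. Its brighter probe read 4.60, 4.96 and 5.71 after anti-IL-15 and 4.54, 4.93 and 5.29 before it, with 1 of 6 samples detected at each time, a change of 0.08 ± 0.16 (limma adjusted p = 0.934). The dimmer probe was not well above background in any CD8 sample after anti-IL-15 and was not tested in CD8. In CD4 TCM the brighter probe read 4.72, 5.87 and 6.05 after anti-IL-15 and 4.67, 6.18 and 6.77 before it, a change of -0.28 ± 0.24, and the dimmer probe gave -0.10 ± 0.23. Both CD4 groups overlapped throughout, with 3 of 6 animals higher on each probe. After IgG1 the SOCS2 changes in CD4 TCM were -0.19 ± 0.24 and -0.01 ± 0.23.

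**Figure D3:**
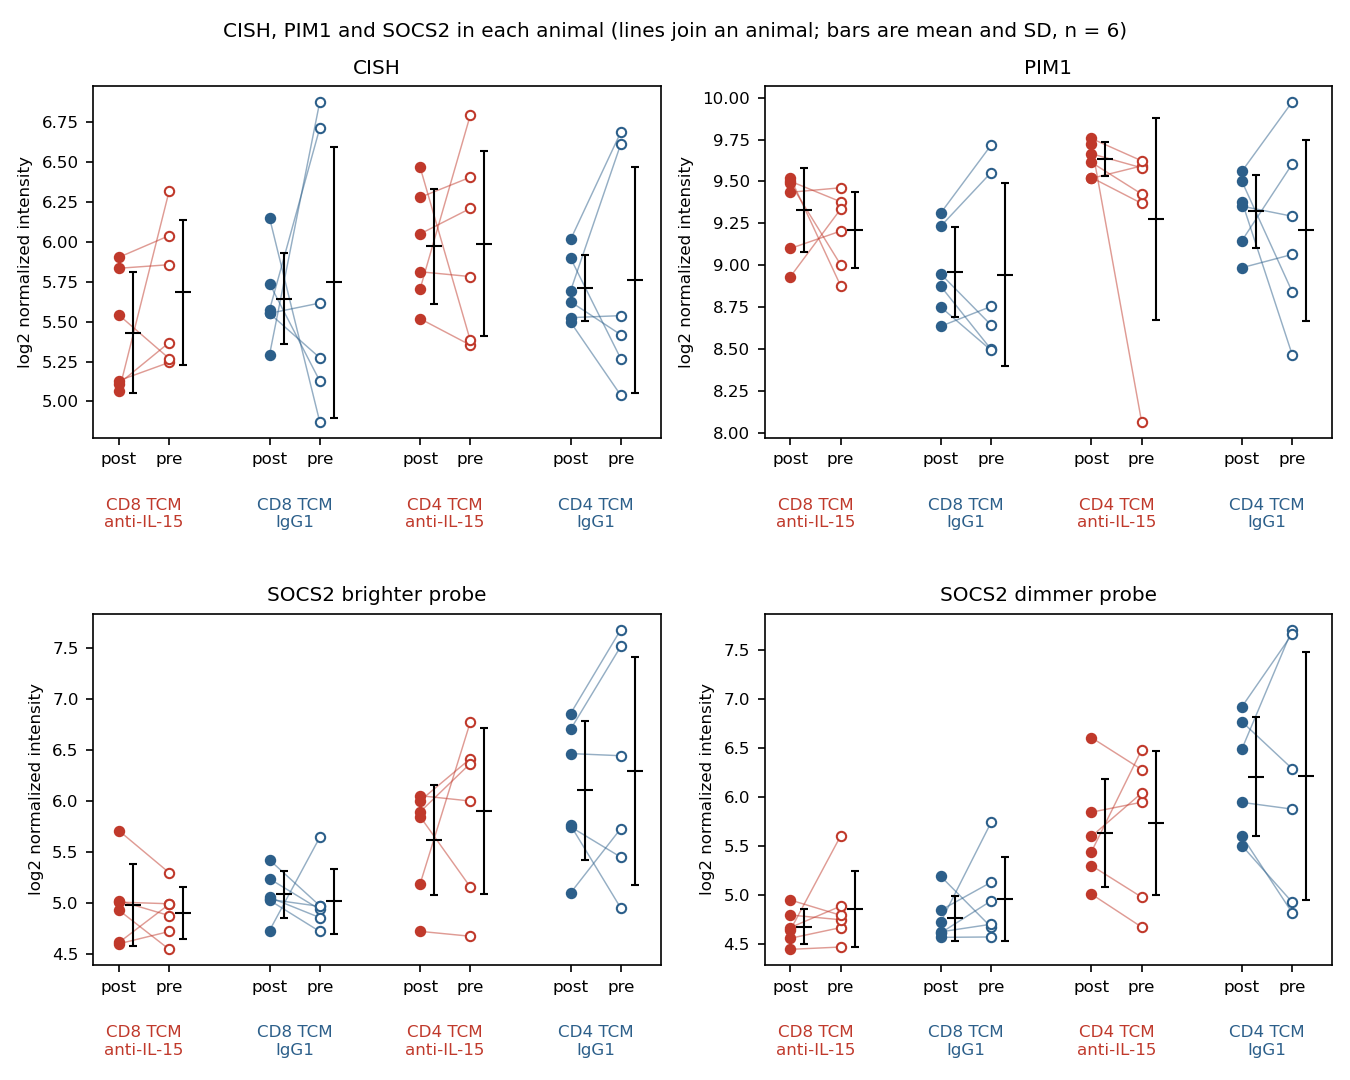
Log2 normalized intensity of CISH, PIM1 and both SOCS2 probes in every sample, drawn as for SOCS1, with post-treatment samples (filled) left of pre-treatment samples (open). Bars are mean and SD of 6 animals. The post-treatment and pre-treatment points overlap in every block, SOCS2 lies low in CD8 TCM, and 1 CD4 pre-treatment sample stands apart for PIM1 at 8.07.

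PIM1, the STAT-induced survival kinase, was bright in every sample and did not pass in any post-treatment comparison. In CD8 TCM it read 8.93, 9.46 and 9.52 after anti-IL-15 and 8.88, 9.27 and 9.46 before it, a change of 0.12 ± 0.15, and 0.02 ± 0.15 after IgG1. In CD4 TCM it read 9.52, 9.64 and 9.76 after anti-IL-15 and 8.07, 9.50 and 9.62 before it. The CD4 change of 0.36 ± 0.21 (limma adjusted p = 0.954) had 5 of 6 animals higher, with animal 3 at 1.66 and the other 5 between -0.07 and 0.19. After IgG1 the PIM1 change in CD4 TCM was 0.11 ± 0.21.

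OSM, the secreted ligand among the members, was higher in 6 of 6 animals after anti-IL-15 in both cell types and missed the threshold in both. In CD8 TCM it read 6.79, 7.74 and 8.30 after anti-IL-15 and 5.68, 6.71 and 7.51 before it, a change of 0.93 ± 0.26 (limma adjusted p = 0.235) that ranged from 0.20 to 2.26 between animals. In CD4 TCM it read 6.53, 7.36 and 7.83 after anti-IL-15 and 5.60, 6.42 and 7.69 before it, a change of 0.82 ± 0.21 (limma adjusted p = 0.365). The post-treatment and pre-treatment ranges overlapped in both cell types. After IgG1 the OSM change was 0.47 ± 0.26 in CD8 TCM, with 5 of 6 animals higher, and 0.32 ± 0.21 in CD4 TCM, with 4 of 6 higher.

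The comparison of the antibodies addressed whether a change after anti-IL-15 exceeded that after IgG1. No member probe passed in either cell type, where 0% of all probes passed, although 768 of 10345 probes in CD8 and 396 of 10896 in CD4 had an unadjusted p under 0.05. The largest member difference was that of the brighter SOCS3 probe in CD8 TCM, 0.90 ± 0.28 (95% interval 0.31 to 1.48, unadjusted p = 0.00504, limma adjusted p = 0.636). For it 5 of 6 anti-IL-15 animals exceeded the highest IgG1 change of 0.91, and the remaining one was 0.57. The differences were 0.47 for SOCS1 (interval -0.12 to 1.06), 0.46 for OSM (-0.33 to 1.25) and -0.26 for the dimmer SOCS3 probe (-0.69 to 0.17).

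In CD4 TCM the differences between antibodies were 0.29 for SOCS1 (interval -0.14 to 0.71), 0.50 for OSM (-0.12 to 1.11), 0.28 for the brighter SOCS3 probe (-0.33 to 0.88) and 0.10 for the dimmer one (-0.44 to 0.63). The intervals include 0 and also differences of over 0.6, so they do not show that the antibodies acted alike. PIM1, CISH and SOCS2 differed by -0.09 to 0.24 between antibodies in CD4 TCM.

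Anti-IL-15 animals were set against IgG1 animals before treatment as well, since a starting difference bears on each change. No member probe passed in CD8 or CD4 TCM, where 0% of all probes passed. At an unadjusted p under 0.05 there were 690 probes in CD8 and 1300 in CD4. SOCS1 was 0.56 ± 0.27 higher in CD4 TCM of anti-IL-15 animals before treatment (unadjusted p = 0.0495, limma adjusted p = 0.418), and OSM was 0.55 ± 0.28 higher (limma adjusted p = 0.447).

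The change in CD8 TCM was set against the change in CD4 TCM over the same 6 anti-IL-15 animals. The fit blocked on animal by cell type, so an animal's CD8 and CD4 changes entered unpaired. The SEs and p-values leave that pairing out. No member probe passed, where 0% of all 11440 probes passed and 432 had an unadjusted p under 0.05. SOCS1 differed by -0.07 ± 0.25, OSM by 0.12 ± 0.35 and the brighter SOCS3 probe by 0.36 ± 0.30. The dimmer SOCS3 probe differed by -0.77 ± 0.23 (unadjusted p = 0.00243, limma adjusted p = 1.00), its CD8 change of 0.03 standing against a CD4 change of 0.80. After IgG1 the same contrast was -0.42 ± 0.23 for that probe.

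Before treatment, CD8 TCM differed from CD4 TCM of the same 12 animals in 4 of the 8 member probes, at a background of 35.4% of 11440 probes called, 14.4% higher and 21.0% lower. This fit took probes that passed the detection filter in either cell type, and the dimmer SOCS2 probe passed it only in CD4 TCM. OSM was the member that was higher in CD8 TCM, by 0.43 ± 0.12 (SE, n = 12, limma adjusted p = 0.00663), with 11 of 12 animals in that direction. Its levels were 5.68, 6.48 and 7.84 in CD8 TCM and 5.36, 6.14 and 7.69 in CD4 TCM, so the populations overlapped while the pairs differed. Of the 7 tested monocyte markers, 5 were also higher in CD8 TCM before treatment, and their part in the OSM difference was not tested.

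SOCS2 and SOCS3 were lower in CD8 TCM before treatment. The brighter SOCS3 probe read 5.12, 5.92 and 6.66 in CD8 TCM and 6.00, 7.05 and 7.19 in CD4 TCM, lower in 11 of 12 animals, by -1.06 ± 0.14 (limma adjusted p = 9.46e-06). The dimmer SOCS3 probe differed by -0.03 ± 0.12 with 6 of 12 animals in each direction, and was detected in 6 CD8 and 4 CD4 samples. The brighter SOCS2 probe read 4.54, 4.95 and 5.64 in CD8 TCM and 4.67, 6.18 and 7.68 in CD4 TCM, a difference of -1.14 ± 0.19 (limma adjusted p = 9.91e-05), and was detected in 2 of 12 CD8 and 10 of 12 CD4 samples.

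The dimmer SOCS2 probe gave -1.07 ± 0.20 (limma adjusted p = 0.000263). It entered this fit only through CD4 TCM, where 19 of 24 samples detected it, against 4 of 24 in CD8 TCM. Its call is therefore no separate support for lower SOCS2 in CD8 TCM. Before treatment this probe was detected in 3 of 12 CD8 and 8 of 12 CD4 samples. With most CD8 readings of both SOCS2 probes not above background, the size of the difference is uncertain. SOCS1 missed the threshold at -0.25 ± 0.10 (limma adjusted p = 0.0518), and CISH (-0.16) and PIM1 (-0.16) did not pass. With the deposited values SOCS1 passed (-0.20, limma adjusted p = 0.0272). It passed in 7 of 11 alternatives, counting these and a looser threshold of 0.1, and in 3 of 12 fits that left out 1 animal. PIM1 passed in 0 of 11 alternatives and in 1 of 12 such fits, the one without anti-IL-15 animal 3 (-0.27, limma adjusted p = 0.0250). With the deposited values, the differences of the 3 lower probes shrank to -0.54 for brighter SOCS3, -0.50 for brighter SOCS2 and -0.48 for dimmer SOCS2, and OSM to 0.23, all still past the threshold.

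**Figure D4:**
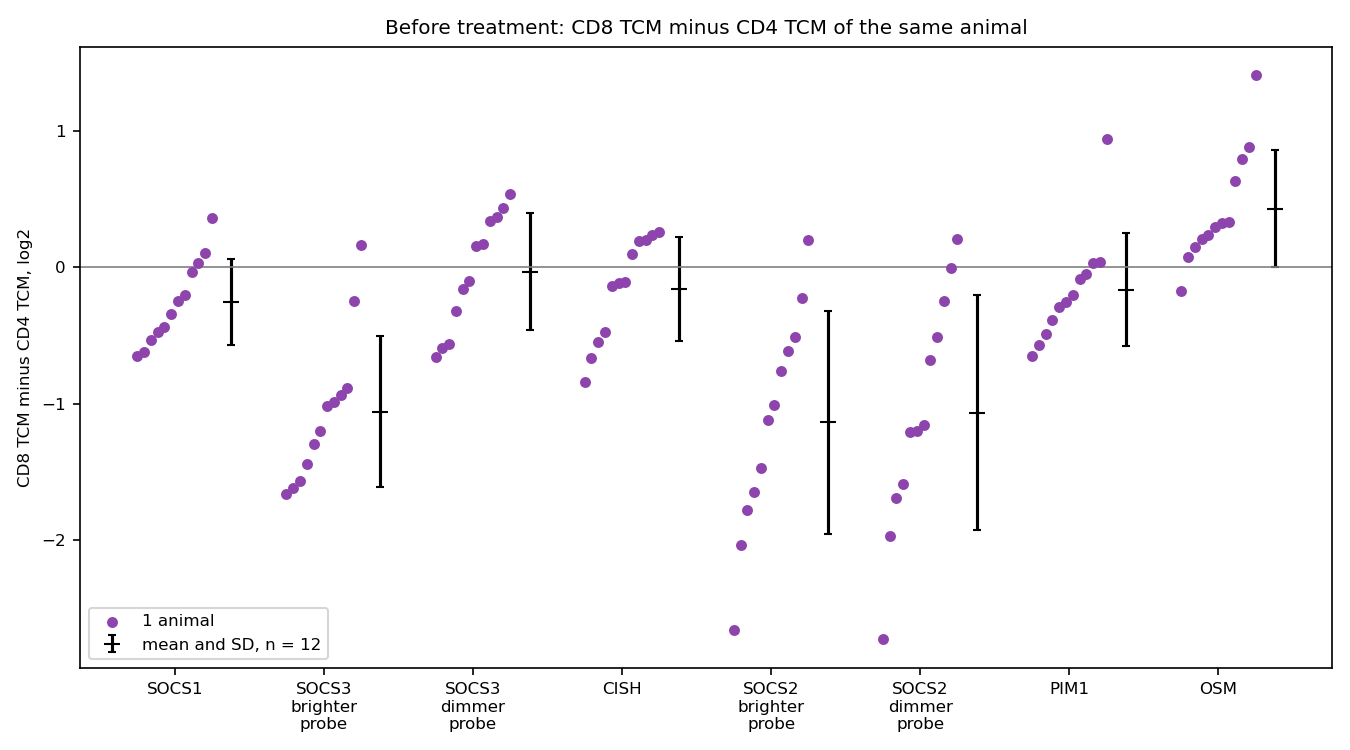
Difference in log2 normalized intensity between CD8 TCM and CD4 TCM of the same animal before treatment, 1 point per animal (12) and probe, ordered by size within a probe. Black bars are mean and SD. The brighter SOCS3 probe and both SOCS2 probes lie below 0 in 11 of 12 animals, OSM lies above 0 in 11 of 12, and the dimmer SOCS3 probe is split 6 to 6.

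Ordered by group mean, SOCS1 was highest in CD4 TCM after anti-IL-15 (9.77 ± 0.30, SD, n = 6), followed by CD8 TCM after anti-IL-15 (9.30 ± 0.14), and lowest in CD8 TCM of IgG1 animals before treatment (8.03 ± 0.68). The first gap exceeded the larger SD of both groups, and the other 6 neighbouring gaps did not. The brighter SOCS3 probe was highest in CD4 TCM after anti-IL-15 (7.77 ± 0.53) and CD4 TCM after IgG1 (7.66 ± 0.71) and lowest in CD8 TCM of anti-IL-15 animals before treatment (5.83 ± 0.51). OSM ran in the other order by cell type, highest in CD8 TCM after anti-IL-15 (7.64 ± 0.56) and lowest in CD4 TCM of IgG1 animals before treatment (5.89 ± 0.40). No neighbouring gap exceeded the larger SD for OSM, CISH, the brighter SOCS2 probe or the dimmer SOCS3 probe.

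Monocyte markers were measured beside these changes. In CD8 TCM 7 of the 8 listed markers were tested, and 7 of 7 had a positive change after anti-IL-15 (median 0.57, against -0.01 for all probes) and 0 of 7 after IgG1 (median -0.38), with none past the threshold. The summed normalized intensity of the 8 markers, with the brighter probe of each gene, ran from 265 to 5927 (median 696) after anti-IL-15 and from 287 to 2244 (median 347) before it. In IgG1 animals it ran from 283 to 1569 (median 316) after treatment and from 248 to 2667 (median 381) before it. The sum rose in 5 of 6 anti-IL-15 animals and in 3 of 6 IgG1 animals. In IgG1 animals 5 and 6 it changed by -0.77 and -1.70 (log2), with the others between -0.30 and 0.23. CD14 was detected in every sample and S100A8 in none.

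In CD8 TCM of anti-IL-15 animals 1 to 6 the changes of the marker sum were -0.19, 0.08, 1.45, 0.30, 0.37 and 2.24 (log2), beside changes of the brighter SOCS3 probe of 1.83, 1.38, 0.97, 0.92, 2.05 and 0.57. The part of monocyte RNA in the SOCS3, SOCS1 and OSM changes was not tested. With the log2 marker sum as a covariate, an alternative chosen after the marker levels were seen, the SOCS3 change was 1.54 and passed (limma adjusted p = 0.0040). With it SOCS1 was 0.92 (limma adjusted p = 0.234) and OSM 0.81 (limma adjusted p = 0.491) in CD8 TCM, and CISH was -0.66 (limma adjusted p = 0.565). CD14 was detected in all 24 CD8 samples, but the other markers in only 0 (S100A8) to 17 (LYZ). The sum thus holds background readings in many samples, so this fit cannot decide the part of monocyte RNA. In CD4 TCM the sum stayed between 275 and 465 after anti-IL-15 and between 274 and 406 before it, and the SOCS1 change with the covariate was 1.08 (limma adjusted p = 0.0131). No marker of any list passed in a post-treatment comparison.

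Erythroid markers were measured in the same way. In CD8 TCM 3 of 4 were tested, with a median change of -0.02 after anti-IL-15 (1 of 3 positive) and 0.86 after IgG1 (3 of 3 positive), and the difference between antibodies had a median of -0.77 (0 of 3 positive). The median in CD4 TCM was -0.53 after anti-IL-15 (0 of 3 positive) and 0.12 after IgG1 (3 of 3 positive), and the difference between antibodies had a median of -0.85. Their summed intensity in CD8 TCM ran from 1874 to 24114 after anti-IL-15 and from 358 to 27542 before it, and in IgG1 animals from 507 to 17430 after treatment and from 360.3 to 13323 before it. The part of erythroid RNA in the member changes was not tested. The NK cell list had a median of 0.29 in CD8 TCM after anti-IL-15 (3 of 4 positive) and -0.02 after IgG1, and the medians of the B cell, neutrophil and platelet lists lay between -0.21 and 0.21 in the post-treatment comparisons.

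**Figure D5:**
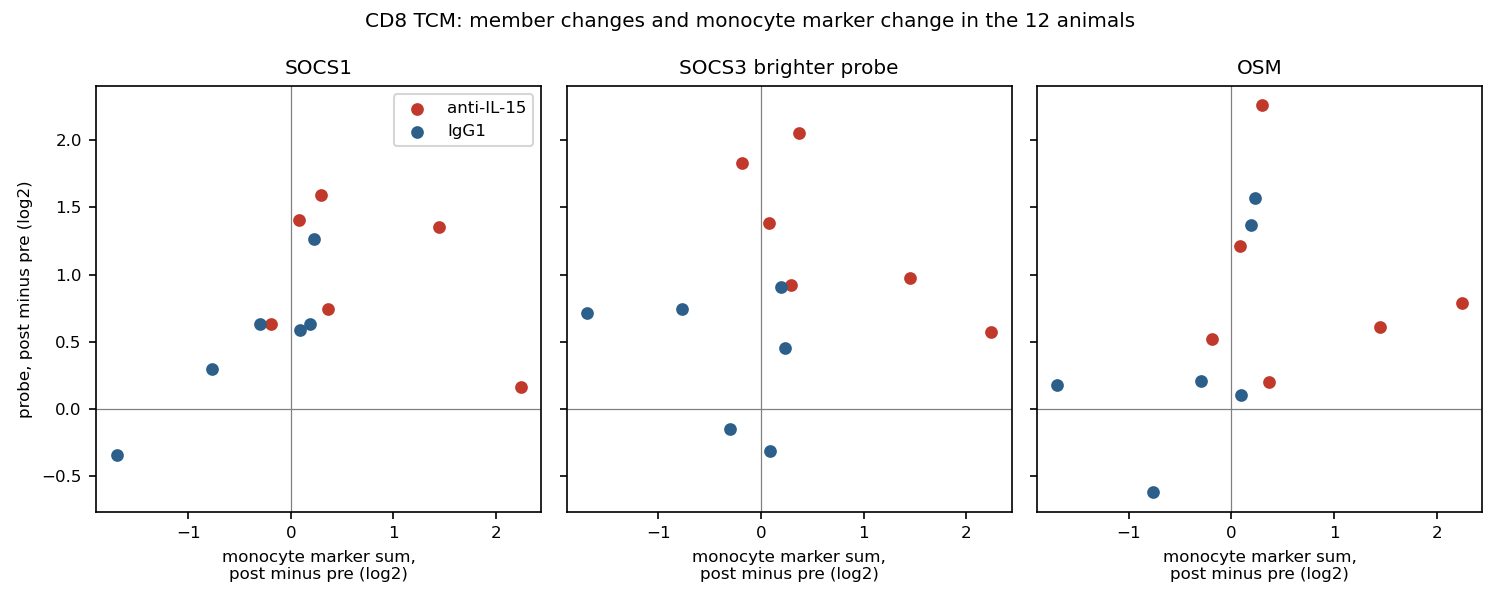
Change of SOCS1, the brighter SOCS3 probe and OSM in CD8 TCM (post minus pre, log2) against the change of the summed monocyte markers (log2), 1 point per animal, for anti-IL-15 (red) and IgG1 (blue). In anti-IL-15 animals the marker changes run from -0.19 to 2.24 and the SOCS3 changes from 0.57 to 2.05.

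The members' changes were compared over 24 pairs (12 animals, 2 cell types), which share animals, so the correlations are descriptions. SOCS1 and OSM changes correlated at r = 0.54, CISH and PIM1 at 0.59, and SOCS1 and brighter SOCS3 at 0.17. Both SOCS2 probes correlated at 0.48 and both SOCS3 probes at 0.26. Among 9335 other genes the changes most like those of SOCS1 were TIMM10 (r = 0.80), DERL2 (0.75) and MED19 (0.66).

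For SOCS3 the most similar genes were PLAGL2 (0.68), METTL16 (0.67) and SNRPB (0.64), and for OSM ZNF563, DBF4 and INPP5F (0.69 each). CISH was nearest to TNFSF10, the gene of the death ligand TRAIL (0.78), BLOC1S5 (0.70) and FBXO32 (0.69). PIM1 was nearest to TRIB2 (0.80), NRF1 (0.76) and SSH2 (0.73), and SOCS2 to AHSA2P (0.71), RPS3A (0.68) and FKBP5 (0.68), a glucocorticoid-induced chaperone. These SOCS2 correlations were higher within CD4 TCM (0.86, 0.77 and 0.84) than within CD8 TCM (0.45, 0.45 and 0.51), where SOCS2 was near background. How high the largest of 9335 correlations would run by chance was not tested.

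Of the other SOCS genes (SOCS4 to SOCS7) 3 were tested in each cell type, and none passed after anti-IL-15, with SOCS6 at 0.15 in CD8 and SOCS5 at 0.30 in CD4 as the lowest p of each. The change of PIM2 was 0.23 in CD8 and 0.02 in CD4. Among JAK and STAT genes 0 of 7 in CD8 and 0 of 8 in CD4 passed, the lowest p in CD8 being those of STAT6 (-0.34) and STAT3 (0.46). Among common gamma chain receptor genes 0 of 6 passed in each cell type, and the change of IL2RB, which binds IL-15, was -0.08 in CD8.

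STAT5 target genes other than the members gave 0 of 9 past the threshold in CD8 (median 0.14, against -0.01 for all probes) and 0 of 10 in CD4 (median 0.05 against -0.02). STAT3 target genes gave 0 of 8 in CD8 (median 0.23) and 0 of 7 in CD4 (median 0.18), led by BCL3, a nuclear partner of NF-kB, at 0.75 in CD8 (limma adjusted p = 0.117) and 1.05 in CD4 (limma adjusted p = 0.365). No difference between antibodies passed for any of these lists.

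Before treatment 5 of the 10 tested other inhibitors of JAK-STAT signalling were lower in CD8 TCM and 1 was higher, beside 21.0% of all probes lower and 14.4% higher, with a median of -0.30 against -0.00 for all probes. PTPN11 (-0.86), CBL (-0.85) and PTPN2 (-0.73) were the lowest of them, and PTPN6 (0.35) was higher. JAK2 was lower (-0.77) while TYK2 (0.44) and STAT4 (0.28) were higher, and PIM2 was lower (-0.29). Of the receptors IL4R (0.77) and IL2RB (0.30) were higher and IL7R (-0.39) lower in CD8 TCM.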

How the data were processed

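Total RNA of sorted TCM was amplified and hybridised to human BeadChips, per the labels' protocols. Each array's deposited raw column gives a whole-number intensity for every probe, and the file headers pair it with a detection p-value. A separate deposited table is in log2; quantile normalization of the raw intensities, without background correction, returned 99.9% of its entries to within 0.001. Per the submitters' processing notes limma was used, with no version given. Readings of 0 (49) were treated as missing. Groups, animals and sorted cell counts came from the labels, and the misspelt time point of IgG1 samples was taken to mean post-treatment.

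Intensities were corrected by normexp with background from the detection p-values (offset 16), then quantile normalized (49 arrays) and put on a log2 scale, all in limma 3.58.1 under R 4.3.3. The 2 arrays of 1 sample were averaged. Probes with 1 gene symbol and a detection p-value under 0.05 in at least 6 of 24 samples of a cell type were fitted. The block was the animal, paired by its identity in the labels; deviations of an animal's 2 samples correlated at a median r of 0.40, 0.38, 0.21 and 0.39 (CD8 anti-IL-15, CD8 IgG1, CD4 anti-IL-15, CD4 IgG1). The number of arrays limits the precision. The members, the pathway and marker lists and the naming rule (all member probes; list genes past the threshold, otherwise up to 3 with the lowest p) were chosen with earlier results of these data known. The result of 1 further gene list is not reported here. Animals are the replicates. On simulated data with 200 changed probes the CD8 anti-IL-15 fit (10344 probes) recovered 79.1% of changes of 1, and the CD8 fit of the difference between antibodies 58.2%. The real fits of these 2 comparisons called 7 and 0 probes. In CD4 the simulated difference between antibodies was recovered in 43.3% at a size of 1. At a size of 0.5 it was recovered in 8.96% in CD8 and 0% in CD4. With so many true changes the Benjamini-Hochberg cutoff is looser, so these shares can overstate the recovery in the real data. No coordinates are given, since no genome build is named, and no probe sequences were used. Alternatives are given in the closing section.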

Additional observations from a re-analysis of the deposited data

Results flagged for a closer look

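In groups of 6 animals, 1 animal stood apart by Dixon's gap in 9 of 96 sets of values (64 of levels, 32 of changes), where chance gives about 1 in 20 for independent sets. Before treatment these were anti-IL-15 animal 3 in CD4 TCM, low for PIM1 (8.07, the next at 9.37) and for the brighter SOCS3 probe (6.00, the next at 6.85). Also apart before treatment were IgG1 animal 5 in CD8 TCM for the brighter SOCS2 probe (5.64), anti-IL-15 animal 2 in CD8 TCM for the dimmer SOCS2 probe (5.60), and IgG1 animal 6 in CD8 TCM for the brighter SOCS3 probe (5.12). Among the changes they were anti-IL-15 animal 3 in CD4 TCM for PIM1 (1.66), anti-IL-15 animal 5 in CD8 TCM for CISH (-1.25), IgG1 animal 5 in CD8 TCM for the brighter SOCS2 probe (-0.91) and anti-IL-15 animal 2 in CD8 TCM for the dimmer SOCS2 probe (-0.96). The changes are computed from the same levels, so the sets are not independent. The PIM1 reading and both SOCS2 readings were flagged as a level and again as a change. The rate of 9 in 96 therefore cannot be set against 1 in 20. No test of a difference in change, between antibodies or between cell types, passed for a member probe. No member moved one way in every animal of one group and the other way in every animal of the other.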

How the results depend on the processing

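Over all alternatives 1963 values of member probes were recomputed, and 12 lost the threshold, 20 gained it and none that passed changed sign. A sign change occurred 84 times, in values that passed under neither setting, none larger than 0.53. After anti-IL-15 in CD8 TCM the count of 1 member probe became 2, by SOCS1, with the deposited values, no background correction, an offset of 50, a variance trend with robust moderation, both cell types in 1 fit and a threshold of 0.1. It became 0 with no filter on dim probes, no replicate block, animals of 1 antibody in the fit, or animals 5 and 6 of each antibody left out. In CD4 TCM the count of 1 became 0 with sorted cell numbers in the model, no replicate block, the replicate block as a random effect and animals of 1 antibody in the fit. Leaving out 1 animal gave 0 to 2 in both cell types. In CD8 the counts of 2 came without anti-IL-15 animal 6 or IgG1 animal 6, and in CD4 without anti-IL-15 animal 1, when the dimmer SOCS3 probe passed (1.01). Over all probes the 7 called in CD8 became 0 to 34, the 3 in CD4 0 to 21, and the 4045 before treatment 2277 to 5240. The cause of these shifts was not tested. Probes near background (SOCS2, dimmer SOCS3, CISH in CD8) bound how small a difference can be seen.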
